A study of Rattus norvegicus with 8 samples.

Results

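The nuclear genes of mitochondrial oxidative phosphorylation were followed in the dentate gyrus (DG) of ovariectomized (OVX) rats after status epilepticus (SE). Members were all non-control spots whose gene name on the array begins with Nduf, Sdha, Sdhb, Sdhc, Sdhd, Uqcr, Cox4, Cox5, Cox6, Cox7, Cox8 or Atp5, or equals Cycs or Cyc1. The rule found 108 of the 43379 spots and 86 of the 35199 gene names on the array. Of these, 75 names are subunits of a complex or cytochrome c, and 5 are assembly factors by name (Ndufaf1, Ndufaf2, Ndufaf3, Ndufaf4 and Sdhaf2). The other 6 were caught by their name alone or are not counted as structural subunits here (Cox4nb, Cox7a2l, Cox6c-ps1, Atp5s, Atp5sl and Atp5hl1).

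Two-colour Agilent arrays measured total RNA from the whole DG of 8 adult female Sprague-Dawley rats. All 8 were ovariectomized, and all went through SE induced by kainic acid, an agonist of a class of glutamate receptors. The 4 COS rats were injected with oil, and the 4 CES rats received estradiol (E2) replacement, which the sample records give as 4 doses of 2 µg every 24 h, given before and after SE. The records give kainic acid at 16 mg/kg and SE ended by pentobarbital after 5 h. The methods of the paper give a different dose, agent and timing, so the time from SE to tissue collection is not settled here. They also place kainic acid 24 h after the last E2 injection, so whether E2 was given after SE is not settled either. Rats without SE and rats with ovaries were not analysed here, so every difference below is between E2 and oil among OVX rats after SE.

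Oxidative phosphorylation is the last stage of respiration. Complex I (the Nduf genes) and complex II (the Sdh genes) pass electrons from NADH and succinate to ubiquinone, complex III (the Uqcr genes) passes them on to cytochrome c, and complex IV (the Cox genes) hands them to oxygen. Complexes I, III and IV pump protons across the inner mitochondrial membrane, and complex V, the ATP synthase (the Atp5 genes), uses that gradient to make ATP, of which neurons need much to restore ion gradients after firing.

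Spots counted as valid when foreground reached 2 times the background beside them. In all, 76 members, read by 92 spots, were valid in all 8 rats and free of outlier marks, of 20787 such genes over the array. A level is the log2 of background-subtracted signal divided by the channel's median valid spot, so 0 is the signal of a median spot. Differences are CES minus COS in log2 units, and a gene was called at a limma adjusted p under 0.05, adjusted over all genes. Valid spots per rat ran from 32381 to 38553 in COS and from 30690 to 35352 in CES, and no spot was saturated. CES replicate 2 stood apart: its mean correlation over all genes was 0.96 with its own group and 0.979 with the COS rats, whereas every other rat correlated better with its own group, so results are also given without it. Because each array carried a pair of rats of the same group, array and group cannot be told apart beyond the random block in the fit.

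Of the members that were not quantified, Ndufa11, Ndufa12, Ndufab1, Sdhc, Cox6c and Atp5d were lost to outlier marks. With those spots kept, their differences ran from −0.43 for Atp5d to 0.48 for Ndufa12, and none was called. Uqcrq, Cox6c-ps1, Cox8b and Cox8c were not valid in every rat. Cyc1, which encodes cytochrome c1 of complex III, was not found under that name. In this bulk tissue, fewer cells of a type and less RNA per cell cannot be told apart.

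Few members were called. A single gene, Ndufb10, rose in CES, and 5 fell (Cox4nb, Ndufa5, Ndufaf1, Ndufaf4 and Ndufb5). That is 1.32% of the 76 members called higher, where 5.74% of all genes were, and 6.58% called lower, where 28.6% of all genes were. The median difference of the members was 0.03, against −0.25 over all 20787 genes. The members therefore lay a median of 0.29 log2 units, 1.22-fold, above the middle of the array, and 64 of 76 lay above it. At an unadjusted p under 0.05 the members numbered 9 of 76, beside 9400 of all 20787 genes. High-level genes made up most of the members, with 63 of 76 among the 20% of all genes with the brightest signal, and those 20% had a median difference of −0.25, with 7.46% of them called higher and 29.8% lower.

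**Figure D1:**
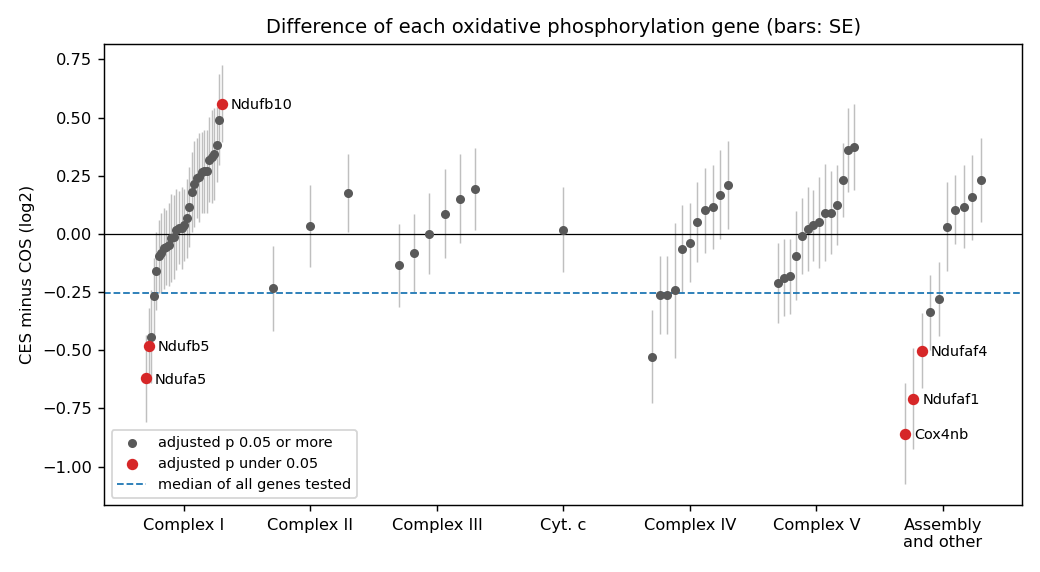
Each point is 1 of the 76 oxidative phosphorylation genes, placed by complex on the x axis, with its CES minus COS difference in log2 units on the y axis and its standard error as a bar; red marks the 6 called genes. The dashed line is the median of all genes, −0.25, and 64 of the 76 points lie above it.

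The direction of the calls depended on how the arrays were scaled. With loess within and Aquantile between arrays, 26 of the 76 members were called higher and none lower. Over all genes, 14.4% were then called higher and 9.32% lower. An unadjusted p under 0.05 was then found for 46 members and for 8546 of the 20787 genes. That scaling moved the median of all genes from −0.25 to 0.05 and the members' median from 0.03 to 0.34. What moved little was the distance between the medians, 0.28 after loess, and 0.22 to 0.35 over the main processing and its 24 alternatives. Quantile normalization, scaling over the spots common to the 8 rats and the deposited log2 table also called 20, 25 and 24 members higher and none lower. Over all genes they called 14.5%, 15.8% and 15.7% higher and 10.8%, 8.24% and 9.4% lower. Under loess and all of these, 20 members were called higher. They included Ndufb10, Ndufb3, Ndufs1, Ndufs3, Ndufs7, Ndufv1, Sdhd, Cox5b and Atp5i. In the main processing, the median over all genes was taken per rat, each gene first centred on its mean. These medians ranked the 8 rats in the same order as their valid spots. They ran from 0.52 in COS replicate 3 (38553 spots) to −0.42 in CES replicate 4 (30690 spots). With common spots setting the scale, the median difference of all genes was 0.15. The part of the valid spots in the differences was not tested. Which scaling comes nearest to the amounts of RNA was not tested either. Below, each complex also has its median difference relative to that of all genes.

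**Figure D2:**
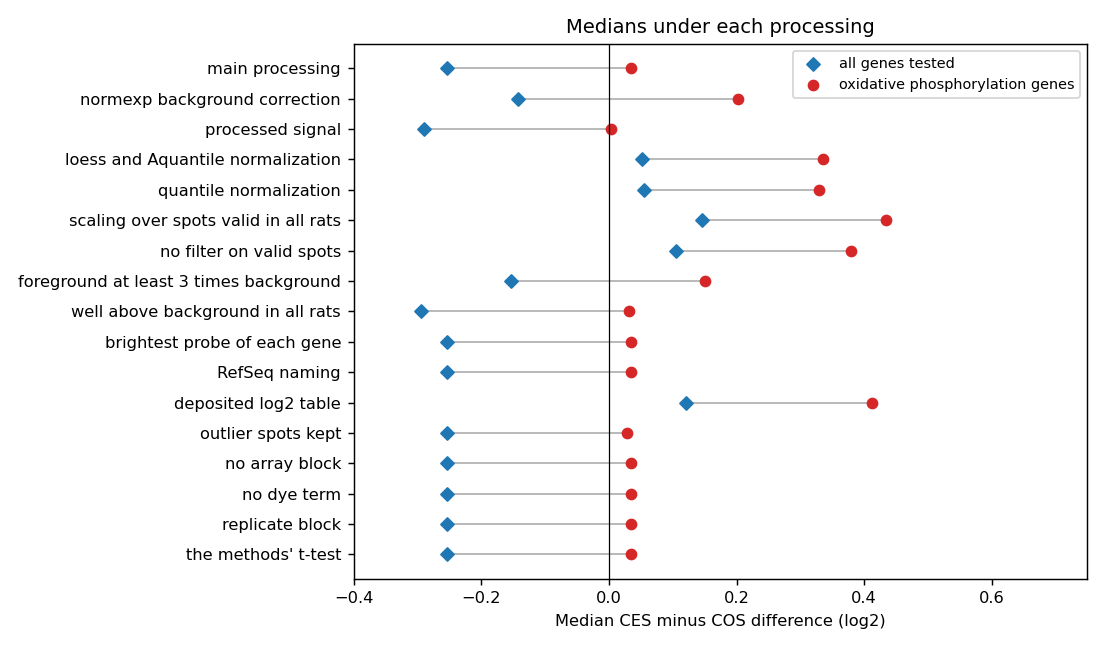
Median CES minus COS difference (x axis, log2 units) of the oxidative phosphorylation genes (red circles) and of all genes tested (blue diamonds) under the main processing and 16 alternatives (y axis). The red circle lies to the right of the blue diamond in every row, whereas both shift together from row to row.

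The calls changed when single rats were left out, among the members and over all genes. Each such fit estimated the array correlation anew. It ran from −0.42 without CES replicate 4 to 0.21 without COS replicate 3, beside −0.01 with all 8 rats. The median standard error over all genes ran from 0.17 without CES replicate 4 to 0.24 without COS replicate 1, beside 0.20. The part of these shifts in the calls was not tested. Without COS replicate 1, COS replicate 3 or CES replicate 1, 0 members were called in either direction, with 6, 6 and 8 at an unadjusted p under 0.05. Over all genes, 2.39%, 1.37% and 2.57% were then called higher and 17.4%, 5.49% and 12.3% lower. At an unadjusted p under 0.05 there were then 7757, 6872 and 7474 of the 20787 genes. Without COS replicate 2, Ndufb10 and Cox4nb were called, beside 5.07% of all genes higher and 19.0% lower. Without COS replicate 4, no member was called higher, and Cox4nb and Ndufb5 were called lower (2.51% and 24.2% of all genes). Without CES replicate 3, Ndufb5 was not called and Ndufb11 was called lower (33.4% of all genes lower). Without CES replicate 4, Ndufb11 and Sdhaf2 joined the 5 called lower (31.9% of all genes lower). Without CES replicate 2, the rat that stood apart, 2 members were called higher (Ndufb10 and Ndufs4) where 8.68% of all genes were, and 6 lower (Cox6a2 beside those named above) where 33.0% of all genes were; the members' median was then 0.08, or 0.35 relative to all genes. The sign of the difference of each of the 6 called genes was the same in all 24 alternatives. That sign was fixed in advance where only the array block, dye term, replicate block or test changed, since the difference stayed the same. None of the 5 genes called lower stayed called under loess, quantile normalization, scaling over common spots or the deposited table.

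Per rat, the median member was taken relative to the median of all genes of that rat, each gene first centred on its mean over the 8 rats. This value was −0.32, 0.02, −0.31 and 0.01 in COS replicates 1 to 4 and −0.03, 0.13, 0.06 and 0.48 in CES replicates 1 to 4. The group means were −0.15 ± 0.19 in COS and 0.16 ± 0.22 in CES (SD, n = 4). CES replicate 4 was the highest and COS replicates 1 and 3 the lowest, and the groups overlapped, since CES replicate 1 lay below COS replicates 2 and 4. Relative to all genes the members' median difference was 0.30 among the 4 rats labeled with Cy3 and 0.30 among the 4 labeled with Cy5.

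**Figure D3:**
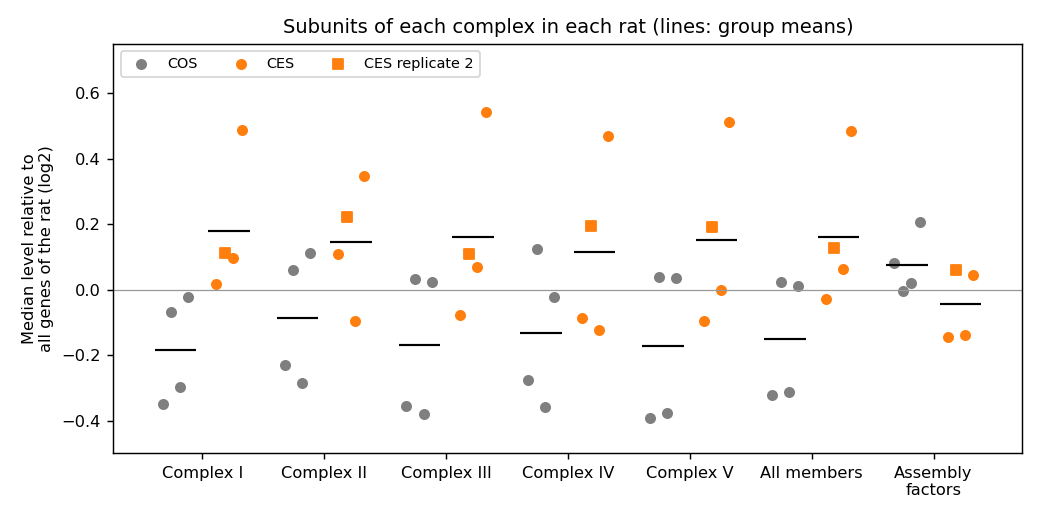
For each complex (x axis), a point is the median level of its subunits in 1 rat relative to all genes of that rat, in log2 units (y axis), with COS in gray, CES in orange, CES replicate 2 as a square and the group means as lines. CES replicate 4 is highest and COS replicates 1 and 3 are lowest for each of the 5 complexes, and the subunits of complex I alone show groups that do not overlap, by a narrow margin.

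Subunits were grouped by gene name, and Ndufa4 is counted to complex I by its name alone. Of the 34 subunits of complex I on the array, 31 were quantified: 1 was called higher, 2 were called lower, and 27 lay above the median of all genes. Their median difference was 0.04, or 0.29 relative to all genes, and 13 were called higher and none lower after loess. The differences spread widely, from −0.62 for Ndufa5 to 0.56 for Ndufb10.

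Ndufb10, an accessory subunit of the membrane arm of complex I, was read by 1 probe at chr10:13977701-13977879 (rn4, minus strand). The level of Ndufb10 was 5.73, 5.55, 5.82 and 5.19 in COS replicates 1 to 4 and 6.17, 5.83, 6.48 and 6.05 in CES replicates 1 to 4. The groups did not overlap, although CES replicate 2, at 5.83, only just cleared COS replicate 3, at 5.82. The difference was 0.56 ± 0.17 (SE), 1.48-fold, with a limma adjusted p of 0.027. It was 0.60 without CES replicate 2 (adjusted p 0.021) and 0.85 after loess (adjusted p 0.015), and over the alternatives the adjusted p ran from 0.01 to 0.27. Leaving out COS replicate 1, 3 or 4 or CES replicate 1 ended the call, with adjusted p of 0.092, 0.088, 0.086 and 0.056.

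Ndufb3, another accessory subunit, also had groups that did not overlap, and is named after its values were seen. The level of Ndufb3 was 6.68, 6.81, 6.85 and 6.53 in COS replicates 1 to 4 and 6.92, 7.07, 7.20 and 7.22 in CES replicates 1 to 4. The lowest CES rat exceeded the highest COS rat, and the difference of 0.38 ± 0.16 had an adjusted p of 0.093; after loess it was 0.71 with an adjusted p of 0.015. With Ndufb10 this makes 2 members whose CES rats all lay above the COS rats, against 1.55% of all genes, and 2 whose CES rats all lay below, Ndufa5 and Cox4nb, against 19.7% of all genes.

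Ndufa5, an accessory subunit of the matrix arm, fell (chr4:50649499-50649558, rn4, minus strand). The level of Ndufa5 was 6.93, 7.66, 6.97 and 7.19 in COS replicates 1 to 4 and 6.17, 6.73, 6.73 and 6.65 in CES replicates 1 to 4. COS replicate 2 was the highest of all, CES replicate 1 was the lowest, and the groups did not overlap. The difference was −0.62 ± 0.19, 1.54-fold, with an adjusted p of 0.029. Without CES replicate 2 it was −0.61, and after loess −0.28 with an adjusted p of 0.17.

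Ndufb5, a membrane-arm subunit, was the weakest of the calls and is named beyond the rule's 3 genes per complex, after its values were seen. The level of Ndufb5 was 6.64, 6.36, 6.72 and 6.01 in COS replicates 1 to 4 and 6.22, 5.82, 6.0 and 5.77 in CES replicates 1 to 4. COS replicate 4 lay among the CES rats, so the groups overlapped. The difference was −0.48 ± 0.16 (adjusted p 0.042), −0.51 without CES replicate 2 and −0.19 after loess (adjusted p 0.38).

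The subunits of the catalytic core of complex I described here were not called. Ndufv1, which binds NADH and flavin, differed by 0.12 ± 0.17, and its partner Ndufv2 by −0.06 ± 0.16. Ndufs1, the largest iron-sulfur subunit, differed by 0.27 ± 0.18, and Ndufs3 and Ndufs7 by 0.27 ± 0.17 and 0.27 ± 0.18. The iron-sulfur protein Ndufs8 lay at −0.06 ± 0.17. Of the Ndufs genes, 8 of 8 lay above the median of all genes, of the quantified Ndufa subunits 8 of 9, and of the Ndufb subunits 7 of 10, with median differences relative to all genes of 0.48, 0.27 and 0.23. After loess, Ndufv1, Ndufs1, Ndufs3 and Ndufs7 were among the members called higher.

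The lowest pair of differences among all members, those of Cox4nb and Ndufaf1, belonged to genes outside the structural complexes. Of the 5 assembly factors by name, which help to build a complex and then leave it, none was called higher. Ndufaf1 and Ndufaf4 were called lower, where 28.6% of all genes were. The median difference of the 5 was −0.34, or −0.08 relative to all genes, beside 0.29 for the 66 subunits. That contrast was not tested. After loess 1 of the 5, Ndufaf3, was called higher and none lower.

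The level of Ndufaf1 was 1.08, 0.50, 1.40 and 0.45 in COS replicates 1 to 4 and −0.04, 0.36, 0.51 and −0.22 in CES replicates 1 to 4. Ndufaf1 takes part in building the membrane arm of complex I. COS replicates 1 and 3 were highest and CES replicates 1 and 4 lowest, and CES replicate 3, at 0.51, lay just above COS replicates 2 and 4. The difference was −0.71 ± 0.22, 1.63-fold (adjusted p 0.031), −0.88 without CES replicate 2 and −0.30 after loess (adjusted p 0.31).

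The level of Ndufaf4 was 2.45, 2.11, 2.55 and 1.93 in COS replicates 1 to 4 and 1.86, 1.80, 1.95 and 1.43 in CES replicates 1 to 4. COS replicate 4 lay inside the CES range and CES replicate 4 was the lowest. The difference was −0.50 ± 0.16 (adjusted p 0.037), −0.60 without CES replicate 2 and −0.17 after loess (adjusted p 0.34). Its 3 probes gave −0.78, −0.66 and −0.47, all of the same sign. Ndufaf3 differed by 0.12 ± 0.18. Ndufaf2 had the largest spread between rats of any member in both groups, with an SD of 0.71 in COS and 0.72 in CES, but its probe was near background, well above it in 0 of 4 COS rats and 2 of 4 CES rats, so no difference is given.

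The levels of these genes in single rats show the overlaps directly.

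**Figure D4:**
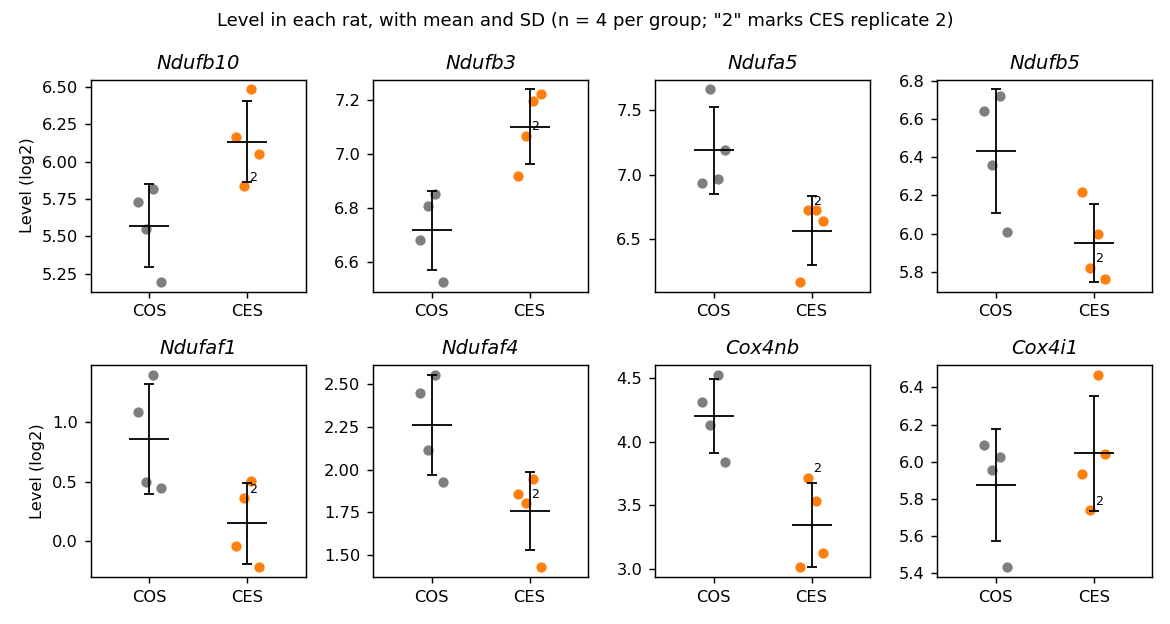
Level in each rat (y axis, log2 of the signal over the array's median valid spot; axes differ between panels) of the 6 called genes and of Ndufb3 and Cox4i1, with the mean and SD of 4 rats per group and CES replicate 2 marked with a 2. The groups are apart for Ndufb10, Ndufb3, Ndufa5 and Cox4nb and overlap for Ndufb5, Ndufaf1, Ndufaf4 and Cox4i1.

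Complex II, which is also an enzyme of the citric acid cycle, had 3 of its 4 subunits quantified and none called (0 at an unadjusted p under 0.05), with a median difference of 0.04 (0.29 relative to all genes). Sdha, the flavoprotein that oxidizes succinate, differed by 0.04 ± 0.18, the iron-sulfur subunit Sdhb by −0.23 ± 0.18, and the membrane anchor Sdhd by 0.18 ± 0.17. Sdhaf2, which attaches the flavin to Sdha, differed by −0.34 ± 0.16 (adjusted p 0.13). After loess 1 subunit, Sdhd, was called higher.

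In complex III none of the 6 quantified subunits was called, with 0 at an unadjusted p under 0.05, and all 6 lay above the median of all genes, by a median of 0.30. The core proteins Uqcrc1 and Uqcrc2 differed by −0.13 ± 0.18 and −0.08 ± 0.17, and the Rieske iron-sulfur protein Uqcrfs1 by 0.15 ± 0.19. Uqcrb, at 0.00 ± 0.17, was the member whose probes disagreed most, with differences of 0.49, 0.34 and −0.17. Of 13 members with several quantified probes, 6 had probes of opposite sign, none of them by more than 1 log2 unit. Cycs, cytochrome c itself, differed by 0.02 ± 0.18.

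In complex IV none of 11 quantified subunits was called and 1, Cox6a2, had an unadjusted p under 0.05, and their median difference was −0.04, or 0.22 relative to all genes. Cox5a and Cox5b, present in every tissue's enzyme, differed by −0.26 ± 0.17 and 0.12 ± 0.18. Some subunits have tissue-specific isoforms. Cox4i1 and Cox6a1, the general forms, differed by 0.17 ± 0.19 and 0.05 ± 0.17, and Cox4i2 and Cox6a2, forms known from lung and from heart and muscle, by −0.26 ± 0.17 and −0.53 ± 0.20; isoforms were not tested against each other. The difference of Cox6a2 had an adjusted p of 0.066, 0.015 without CES replicate 2, and 0.57 after loess, where the difference was −0.14. Cox6b2, Cox7a2 and Cox8a differed by −0.24 ± 0.29, −0.06 ± 0.19 and −0.04 ± 0.17. Cox7a2l, a factor for supercomplexes rather than a subunit, differed by 0.23 ± 0.18.

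The widest change in a Cox-named gene, and the largest fall of any member, was that of Cox4nb. This gene, now named Emc8, encodes a subunit of the membrane protein complex of the endoplasmic reticulum and is no part of complex IV; it took its name from lying beside Cox4i1. Its probe lies at chr19:51014118-51014177 on the minus strand and that of Cox4i1 at chr19:51024035-51025064 on the plus strand (rn4). The level of Cox4nb was 4.32, 4.13, 4.53 and 3.84 in COS replicates 1 to 4 and 3.01, 3.72, 3.53 and 3.12 in CES replicates 1 to 4. All CES rats lay below all COS rats, with CES replicate 2 the nearest to COS. The difference was −0.86 ± 0.22, 1.81-fold (adjusted p 0.015). It was −1.03 without CES replicate 2, and −0.54 after loess with an adjusted p of 0.087. The level of Cox4i1 was 6.09, 5.96, 6.03 and 5.43 in COS replicates 1 to 4 and 5.93, 5.74, 6.47 and 6.04 in CES replicates 1 to 4. There the groups overlapped, and the adjusted p was 0.52.

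The start regions of these neighbours share their DNA, and are shown because the pair lies head to head while only Cox4nb was called. The sequences are RefSeq's for GRCr8, each running from 250 bases before to 50 after the annotated start, and the start sites lie 148 bases apart. The windows share 247 bases, read from opposite strands (Cox4i1 at chr19:65630133-65630432, plus strand, and Cox4nb at chr19:65630186-65630485, minus strand). Capitals mark the letters CCGGAAG, or CTTCCGG on the other strand, which the factor GABP and other ETS proteins are known to bind.
Cox4i1: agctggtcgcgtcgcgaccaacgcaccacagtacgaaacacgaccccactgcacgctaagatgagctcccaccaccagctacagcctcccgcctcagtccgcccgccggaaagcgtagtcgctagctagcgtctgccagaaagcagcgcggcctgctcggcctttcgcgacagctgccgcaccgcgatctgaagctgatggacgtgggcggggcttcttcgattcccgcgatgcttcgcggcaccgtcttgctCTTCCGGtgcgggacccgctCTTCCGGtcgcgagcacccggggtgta
Cox4nb: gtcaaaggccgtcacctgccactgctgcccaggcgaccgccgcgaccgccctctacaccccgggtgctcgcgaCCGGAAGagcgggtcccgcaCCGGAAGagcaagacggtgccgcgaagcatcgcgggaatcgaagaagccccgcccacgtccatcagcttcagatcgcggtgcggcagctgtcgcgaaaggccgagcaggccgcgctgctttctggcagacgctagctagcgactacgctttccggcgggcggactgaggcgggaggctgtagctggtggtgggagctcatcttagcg
The same pair of matches appears in both windows. It begins 3 and 23 bases after the start site of Cox4i1 and 177 and 157 bases before that of Cox4nb.

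Start regions were found in the RefSeq table for 71 of the 86 members. The GABP letters occurred on either strand in 23 of 71 (32.4%), compared with 9.22% of all 27457 start regions of the same length. The NRF1 letters GCGCATGC occurred in 11 (15.5% against 2.66%), the YY1 letters ATGGCGG in 17 (23.9% against 5.22%) and the ERR letters AAGGTCA in 10 (14.1% against 4.37%). Of the called genes, Ndufaf1 (chr3:127103971-127104270, minus strand) held the GABP letters and Ndufaf4 (chr5:43401545-43401844, plus strand) the NRF1 letters, which there overlap on both strands. The windows of Ndufb10, Ndufa5 and Ndufb5 held none of the 4. Those of the gene that rose and of an assembly factor that fell are shown beside that of Cycs (chr4:80984718-80985017, minus strand), with every match in capitals; Ndufb10 lies at chr10:14255917-14256216, minus strand.
Ndufb10: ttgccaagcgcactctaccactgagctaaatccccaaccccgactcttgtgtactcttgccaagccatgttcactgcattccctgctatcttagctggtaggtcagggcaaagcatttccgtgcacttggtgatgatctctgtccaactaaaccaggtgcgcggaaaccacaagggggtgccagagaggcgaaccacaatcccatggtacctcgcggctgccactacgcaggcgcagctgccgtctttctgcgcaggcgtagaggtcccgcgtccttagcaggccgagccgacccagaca
Ndufaf4: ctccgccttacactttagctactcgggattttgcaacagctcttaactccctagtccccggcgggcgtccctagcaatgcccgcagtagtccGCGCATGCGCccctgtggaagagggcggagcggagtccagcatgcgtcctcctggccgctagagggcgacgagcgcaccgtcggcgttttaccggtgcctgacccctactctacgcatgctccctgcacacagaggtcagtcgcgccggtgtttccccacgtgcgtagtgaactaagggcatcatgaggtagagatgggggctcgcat
Cycs: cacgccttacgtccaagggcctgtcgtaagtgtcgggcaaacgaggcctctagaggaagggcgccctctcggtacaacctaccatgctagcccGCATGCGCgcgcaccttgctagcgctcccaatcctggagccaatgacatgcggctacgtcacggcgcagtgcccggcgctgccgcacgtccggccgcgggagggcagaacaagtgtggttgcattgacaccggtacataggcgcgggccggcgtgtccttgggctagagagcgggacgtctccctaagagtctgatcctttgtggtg
Such a match is a string of letters, and no binding was measured here.

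In complex V all 14 quantified subunits lay above the median of all genes, by a median of 0.30, and none was called, with 0 at an unadjusted p under 0.05. The catalytic core subunits Atp5a1, Atp5b and Atp5c1 (alpha, beta and gamma) differed by −0.19 ± 0.16, −0.09 ± 0.19 and 0.04 ± 0.15. Atp5g1, Atp5g2 and Atp5g3, which encode the same c subunit of the rotor ring, differed by 0.09 ± 0.18, −0.21 ± 0.17 and −0.01 ± 0.16. The highest values were those of Atp5j2 and Atp5i, small membrane subunits, at 0.37 ± 0.18 and 0.36 ± 0.18. These latter were among 5 subunits of complex V called higher after loess.

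The mitochondrial genome encodes further subunits of complexes I, III, IV and V, and the array's transcript probes quantified 6 of 7 listed, named here as the files describe them. None was called, and the lowest adjusted p was 0.24. Their differences ran from 0.10 ± 0.23 for ND2 to 0.31 ± 0.19 for CO3, with a median of 0.19, or 0.44 relative to all genes, and 0.21 without CES replicate 2. After loess CO3 was called higher.

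Among 14 quantified regulators of mitochondrial biogenesis none was called higher and 6 were called lower, beside 5.74% and 28.6% of all genes: Nrf1, Gabpa and Gabpb1, transcription factors with targets among respiratory genes, Yy1, the coactivator Pprc1, and Polg, the polymerase of mitochondrial DNA. Their median difference was −0.50, or −0.24 relative to all genes. The largest fall was that of Pprc1, at −1.16 ± 0.21 (adjusted p 0.0046), followed by Gabpa at −1.03 ± 0.22 (adjusted p 0.0083) and Polg at −0.93 ± 0.20 (adjusted p 0.0086). Nrf1 differed by −0.86 ± 0.20 (adjusted p 0.01). Ppargc1a, the best known coactivator of the group, differed by −0.28 ± 0.17 (adjusted p 0.23) and Tfam, which packages mitochondrial DNA, by −0.55 ± 0.19 (adjusted p 0.052). Without CES replicate 2, 9 were called lower (33.0% of all genes). After loess only Pprc1 was (9.32% of all genes), and Ppargc1b was called higher (14.4% of all genes).

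Of 17 quantified assembly factors that the naming rule does not reach, 2 were called lower (Sco1, which delivers copper to complex IV, at −0.90 ± 0.18, and Cox15, for its heme, at −0.59 ± 0.18) and none higher. Their median difference was −0.35, or −0.09 relative to all genes. Calls in this and the next lists are to be read against 28.6% of all genes called lower and 5.74% higher. Of 11 genes of the citric acid cycle and pyruvate dehydrogenase, Cs (citrate synthase) and Suclg2 were called lower, at −0.48 ± 0.17 and −0.50 ± 0.15, and the median was −0.20, or 0.06 relative to all genes and 0.10 after loess. Of 9 genes of inner membrane transport and uncoupling, Slc25a3, the phosphate carrier that supplies ATP synthase, was called lower at −0.50 ± 0.17, and the median was −0.06, or 0.19 relative to all genes and 0.23 after loess. After loess 1 of the assembly factors, Sco1, was called lower, and in the other pair of lists Sucla2, Slc25a14 and Vdac3 were called higher and none lower. Over all genes, 9.32% were then called lower and 14.4% higher. Without CES replicate 2, 5 assembly factors, 3 genes of the citric acid cycle list and 1 of the transport list were called lower, and Slc25a14 was called higher. Over all genes, 33.0% were then called lower and 8.68% higher.

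**Figure D5:**
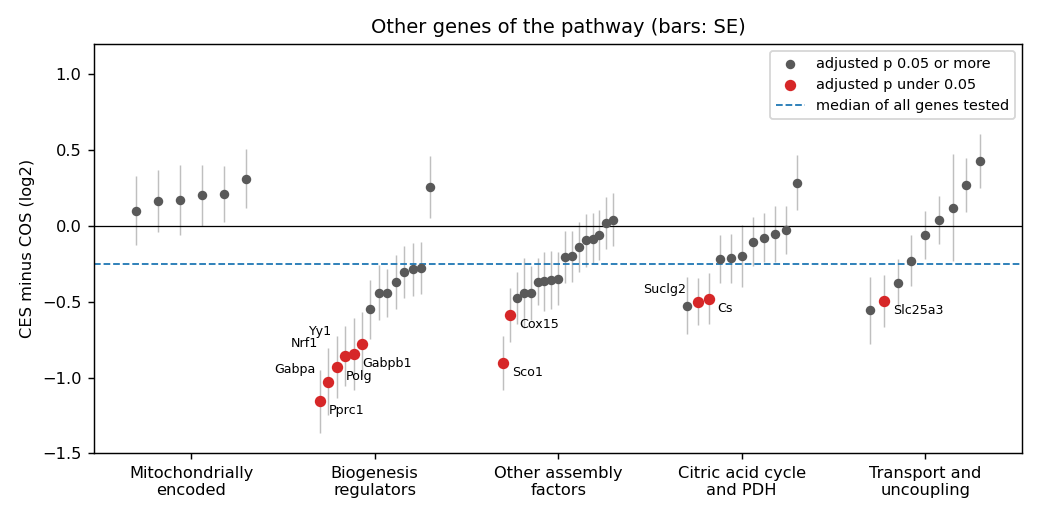
CES minus COS difference in log2 units (y axis) of single genes in 5 lists of the same pathway (x axis), with standard errors as bars and called genes in red. The 6 mitochondrially encoded genes all lie above 0, and 13 of the 14 biogenesis regulators lie below 0, where 31.4% of all genes lie above 0.

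Markers of the cell types in the tissue were set beside these values, with calls to be read against 5.74% of all genes called higher and 28.6% called lower. Of 8 quantified granule cell and neuron markers 2 were called higher (Camk2a and Syt1) and 3 lower (C1ql2, Dsp and Nefl); their summed level ran from 8.35 to 8.81 in COS and from 8.34 to 8.60 in CES. Of the granule cell markers, C1ql2 had levels of 3.31 ± 0.38 in COS and 2.08 ± 0.51 in CES (SD, n = 4). Calb1 had levels of 2.93 ± 0.46 and 2.65 ± 0.37, so C1ql2 and Calb1 lay above a median spot in both groups. Dsp lay below a median spot in both, at −0.71 ± 0.28 in COS and −1.94 ± 0.57 in CES. Prox1 and Rbfox3, also among the 10 listed, were not quantified. Of 5 interneuron markers, Sst and Vip were called lower, with sums of 7.57 to 8.41 in COS and 6.14 to 7.26 in CES. These sums did not overlap, but they add linear levels, so Sst, the brightest, makes up most of them. The groups overlapped for Gad1, Gad2 and Pvalb. Over all genes, 19.7% had all CES rats below all COS rats. The level of Sst was 7.54 ± 0.44 in COS and 5.94 ± 0.67 in CES (SD, n = 4), and Pvalb differed by 0.51 ± 0.20 (SE, adjusted p 0.071). Of 6 astrocyte markers 2 were called higher (Aldh1l1 and Gja1), with sums of 7.39 to 7.57 in COS and 7.22 to 7.85 in CES. Gfap differed by −1.22 ± 0.44 (adjusted p 0.053), with all CES rats below all COS rats, as in 19.7% of all genes. Of 6 microglia and macrophage markers, Cd68, Csf1r and Itgam were called lower and P2ry12 higher, with sums of 5.08 to 5.68 and 4.64 to 5.14. Of 5 endothelial and mural markers, Flt1, Kdr and Pdgfrb were called lower and Rgs5 higher, with sums of 4.95 to 5.58 and 4.28 to 5.00. No oligodendrocyte, choroid plexus or blood marker was called; the choroid plexus sums spread from 3.71 to 9.26 in COS and from 4.00 to 7.58 in CES, and the blood sums from 1.73 to 4.19 and from 2.10 to 2.83. Oligodendrocyte sums were 7.80 to 8.66 in COS and 8.23 to 8.86 in CES. Without CES replicate 2 the interneuron markers had 1 call higher and 4 lower, the astrocyte markers 3 and 1, the microglia and macrophage markers 1 and 4 and the oligodendrocyte markers 1 and 0, while the counts of the other lists were the same. Pvalb was the interneuron marker called higher and Gfap the astrocyte marker called lower. Over all genes, 8.68% were then called higher and 33.0% lower. After loess the calls of C1ql2, Gja1, Csf1r, Itgam and Kdr were lost, and Map2 and Pvalb were called higher. The part of these cell types in the differences of the oxidative phosphorylation genes was not tested.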

How the data were processed

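Total RNA from the DG of 8 rats was hybridized to 4 two-colour arrays of a single slide, 1 rat per channel; groups, replicate numbers and dyes follow the sample records. The deposited scanner files, made by the authors with Agilent Feature Extraction 10.7.3.1 per the labels, hold the intensity and the local background of each spot before normalization, a processed intensity, and marks for outlier and well-above-background spots. A deposited table of log2 values, also by the authors, has in each column the channel's background-subtracted signal relative to its median. It served only as an alternative.

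From the mean signal minus the background median, each channel was divided by the median of its valid spots, a step of the study's methods. The methods then describe an iterative in-house renormalization over labels and conditions, which was not repeated here. Spots valid in all rats and without outlier marks were averaged per gene name and taken to log2. The groups were compared with limma 3.58.1 (R 4.3.3, two-sided), in which dye was a fixed effect and array a random block set by duplicateCorrelation from statmod 1.5.0. P-values were adjusted by Benjamini-Hochberg over 20787 genes. The median standard error was 0.20, and the number of arrays limits the precision. The fit was tested on simulated data of this layout. Python 3.11.15, numpy 2.4.6, pandas 2.3.3 and matplotlib 3.10.9 made the summaries and plots.

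Members, lists of other genes, tests and alternatives were chosen with earlier results of these data known. Genes named singly were those fixed by their role in each complex, up to 3 called genes per complex and direction with the smallest adjusted p, members whose probes differ in sign by over 1 log2 unit, and the member with the largest SD in each group; the other members given singly (such as Ndufb3, Ndufb5, Ndufaf3, Sdhaf2, Uqcrb, Atp5i and Atp5j2) and the single genes of the other lists were chosen after their values were seen, and 1 gene of the rule is not reported here. Alternatives covered the background correction, the normalization, the filters, outlier marks (chosen after seeing the data), array block, dye term, replicate block, probe choice, naming, the methods' t-test, the deposited table and leaving out each rat. Coordinates of probes (rn4) were read from the files, and start regions are RefSeq's for GRCr8. Replicates are separate rats per the records.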

Additional observations from a re-analysis of the deposited data

Results flagged for a closer look

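Of 88 groups of 4 rats tested for a rat far from the others, 4 were marked, where chance marks about 1 in 20. Uqcrc2 was low in CES replicate 2, at 6.16 against 6.44 to 6.47 in the other CES rats. Cox7a2 and Cox5a were low in COS replicate 4, at 5.98 against 6.41 to 6.50 and at 6.64 against 6.98 to 7.04. Ndufa5 was low in CES replicate 1, at 6.17 against 6.65 to 6.73 in the other CES rats, and the call of Ndufa5 was lost without that rat.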

How the results depend on the processing

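The members' median relative to all genes stayed between 0.22 and 0.35 in all 24 alternatives, and within 1 SD of the rats for each complex. For scaling over common spots and the changes of block, dye term and test this was fixed in advance, since they cannot move that median. Counts of members called higher and lower, 1 and 5, became 0 and 0 with normexp, with no filter and in the methods' t-test after Benjamini-Hochberg adjustment (unadjusted p under 0.05 in 1, 31 and 6 members), 26 and 0 with loess and Aquantile, 20 and 0 with quantile normalization, 25 and 0 with scaling over spots valid in all rats, 24 and 0 in the deposited log2 table, and 2 and 0 with the foreground minimum at 3 times background. They were 2 and 6 for spots well above background and without the dye term. Over all genes, 0.65% were called higher and 2.32% lower with normexp, and none with no filter or in the t-test. At an unadjusted p under 0.05, normexp gave 2957 of 20787 genes, no filter 9043 of 34594 and the t-test 5900 of 20787. The foreground minimum at 3 times background gave 7.53% of all genes higher and 17.3% lower. Spots well above background gave 9.21% and 39.8%, and leaving out the dye term 5.88% and 31.6%. The members' median difference of 0.03 rose to 0.34 (loess), 0.33 (quantile), 0.43 (scaling over common spots), 0.38 (no filter) and 0.41 (deposited table). Leaving out 1 rat gave 0 to 2 members higher, 0 to 7 lower, a median of −0.06 to 0.12 and a relative median of 0.22 to 0.35. Over all genes it gave 1.37% to 8.68% higher and 5.49% to 33.4% lower. The cause was not tested, beyond that some alternatives scale or test different spots. Processed signal, the brightest probe, RefSeq naming, outlier spots kept and no array block gave 1 higher and 4 to 5 lower. Over all genes they gave 5.31% to 5.8% higher and 26.5% to 28.6% lower. Of 885 values of the named genes under an alternative, none reversed with a call on either side, 74 lost a call and 37 gained one.

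Rats with the same replicate number correlated at 0.21 to 0.35 after group means were removed and at −0.28 to 0.09 after dye means were removed too, since the number is tied to the dye. The samples share only a number. With it as a replicate block, 1 member was called higher and 4 lower, beside 5.04% and 29.1% of all genes.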
